A study of Mus musculus with 12 samples.

Results

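The complement system was represented here by 10 genes, C1qa, C1qb, C1qc, C1ra, C1s1, C4b, C2, C3, Cfb and Serping1, chosen by name among the 32288 rows of each count table, and all 10 passed the filter on low counts in both fits described below. They were measured by RNA sequencing of whole subcutaneous tumors grown from P815, a mouse mastocytoma (mast cell tumor) line, in young adult DBA/2 mice of both sexes. Each of the 4 groups held 3 mice. P815-IFNG tumors carried a light-switchable module, in which the transactivator GAVPO drives mouse Ifng and Cxcl10 with a secreted luciferase, together with an mRuby and firefly luciferase reporter. P815-M tumors, the control line, carried the reporter without the module. Both lines were single clones, so a difference between them is a difference between 2 clones as well. Mice of the light groups received blue light for 12 hours per day over 6 days, beginning 7 days after implantation, and mice of the dark groups received none.

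Complement is a cascade of secreted proteins that marks targets for phagocytosis and inflames tissue. C1q, built from the chains encoded by C1qa, C1qb and C1qc, recognises a target and carries the proteases C1r and C1s, which cleave C4 and C2 to form the classical C3 convertase. Factor B, encoded by Cfb, forms the alternative convertase with cleaved C3, and the C1 inhibitor, encoded by Serping1, inactivates C1r and C1s. In tissues outside the liver, C1q is made mainly by macrophages and dendritic cells, whereas C1r, C1s, C2, C3, C4, factor B and C1 inhibitor are also made by fibroblasts and endothelial cells, and several of them are induced by interferon gamma.

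Most members have a neighbour among the others (positions from GRCm38, GENCODE M21, all on the minus strand except C1ra). The 3 C1q genes are neighbours at chr4:136880129-136898803, C1ra at chr6:124512405-124523443 lies beside C1s1 at chr6:124530345-124542359, and C4b at chr17:34728380-34743882, Cfb at chr17:34856374-34862518 and C2 at chr17:34862604-34898265 lie together on chromosome 17. C3 lies at chr17:57203970-57228136 and Serping1 at chr2:84765387-84775444. Upstream windows of 250 bases before the RefSeq start (GRCm38.p6) were at hand for 5 of the 10 genes. They are shown for C1qb and C1qc, as chains of C1q, and for C1s1 and C3, as other components. Capitals mark matches, on either strand, to 5 motifs: the interferon gamma activated site GAS (TTCNNNGAA), the interferon-stimulated response element ISRE (GAAANNGAAA), a PU.1 core (GAGGAAG), C/EBP (TTGCNNAA) and AP-1 (TGANTCA). All 4 stretches are written 5′ to 3′ on the minus strand, at chr4:136886201-136886450, chr4:136893066-136893164, chr6:124542360-124542609 and chr17:57228137-57228386 in this order, and that of C1qc was cut to the 99 bases upstream of both its RefSeq and its GENCODE start.
C1qb: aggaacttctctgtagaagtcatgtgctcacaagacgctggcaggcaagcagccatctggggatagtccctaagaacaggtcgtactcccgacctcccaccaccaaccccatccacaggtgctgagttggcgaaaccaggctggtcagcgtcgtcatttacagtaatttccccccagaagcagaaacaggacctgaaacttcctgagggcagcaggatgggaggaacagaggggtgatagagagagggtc
C1qc: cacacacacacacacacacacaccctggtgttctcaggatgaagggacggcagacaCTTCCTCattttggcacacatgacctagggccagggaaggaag
C1s1: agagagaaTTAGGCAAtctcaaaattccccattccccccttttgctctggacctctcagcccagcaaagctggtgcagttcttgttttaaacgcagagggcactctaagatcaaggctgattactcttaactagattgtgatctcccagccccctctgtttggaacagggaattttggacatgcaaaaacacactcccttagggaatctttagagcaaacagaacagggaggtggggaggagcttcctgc
C3: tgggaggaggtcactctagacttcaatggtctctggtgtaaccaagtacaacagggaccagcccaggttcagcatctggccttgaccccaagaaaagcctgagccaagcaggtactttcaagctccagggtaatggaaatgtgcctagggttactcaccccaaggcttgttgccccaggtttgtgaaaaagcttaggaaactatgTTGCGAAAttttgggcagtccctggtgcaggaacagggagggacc
C1qc held a PU.1 core on the reverse strand at positions -194 to -188 from its RefSeq start, PU.1 being a factor of the myeloid lineage. C1s1 held a C/EBP match at -242 to -235 on the reverse strand and C3 held one at -45 to -38, C/EBP being a family active in myeloid and acute phase genes. No match to the other 3 motifs was found in the windows of these genes or of C1ra, and none of the 5 in that of C1qb. Of 32851 windows of 250 bases over all genes, 10.6% held the PU.1 core, 9.56% C/EBP, 7.02% GAS, 2.98% ISRE and 6.75% AP-1, so that the matches are common letters and are given as a description.

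Before any comparison, the libraries themselves stood apart. Of the 12, 10 libraries, hereafter the shallow libraries, held 2211234 to 2946792 counts, and the deep libraries, replicate 3 of P815-IFNG light and replicate 3 of P815-IFNG dark, held 41473500 and 42338096. The module was where the labels place it: the GAVPO row held 0 to 4 counts in P815-M libraries and 1040 to 1520 counts in shallow P815-IFNG libraries. The row of the induced Ifng and Cxcl10 construct held 6 to 11 counts in shallow P815-IFNG libraries of either condition, and 228 in the deep light against 126 in the deep dark library. Mast cell markers, which define the line, were present throughout, Kit at 327 to 521 CPM (counts per 1000000 counts of the library, scaled by TMM factors, a correction for library composition) as group means over shallow libraries.

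Library kind also moved with which strand of a locus was counted. Gm16567, an annotated antisense gene at chr6:124530911-124542310 whose 576 exon bases all lie within exons of C1s1, was singled out after its values were seen. It stood at 425 to 2760 CPM in the shallow and at 9.51 and 15.5 CPM in the deep libraries, whereas C1s1 itself stood at 22.9 to 264 and at 29.3 and 53.1 CPM. The mitochondrial gene mt-Nd6, which is encoded on the strand opposite to most mitochondrial genes, took 29.0% to 47.9% of mitochondrial counts in shallow libraries against 3.56% and 3.85% in the deep ones. Masp2, a protease of the lectin pathway that shares 1817 exon bases with Tardbp on the other strand, stood at 201 to 345 CPM in shallow and 13.2 and 15.0 CPM in deep libraries. The library kit is stranded and the counting program is described as run with default settings, but the strand setting of each library is not given in the sources used here and was not tested, so that the strand behind a member's counts in a shallow library is not known. Levels are therefore compared among the shallow libraries, the deep pair is shown apart, and reads of overlapping genes cannot be assigned to either.

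C1qa, the A chain, was measured at 321 and 281 CPM in the shallow P815-IFNG dark libraries, 214 and 197 in P815-IFNG light, 180, 233 and 232 in P815-M light, and 131, 57.3 and 109 in P815-M dark. P815-M dark tumors were the lowest of the shallow groups and P815-IFNG dark tumors the highest, with no overlap between them. C1qb, the B chain, stood at 192 and 169 CPM in P815-IFNG dark, 124 and 90.3 in P815-IFNG light, 130, 118 and 120 in P815-M light, and 71.4, 29.2 and 76.5 in P815-M dark. C1qc, the C chain, stood at 164 and 129, 124 and 115, 103, 127 and 102, and 79.6, 42.2 and 58.0 CPM in the same order. All 3 chains were thus highest in P815-IFNG dark and lowest in P815-M dark, and replicate 2 of P815-M dark was the lowest shallow library for each. In the deep light and deep dark libraries C1qa stood at 77.6 and 56.3 CPM, C1qb at 109 and 68.9, and C1qc at 62.5 and 47.6, with light above dark for each chain, opposite to the shallow libraries of the same line.

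The chains kept close proportions within a library kind. C1qa took 43.5% to 51.0% of the C1q counts of a shallow library, C1qb 22.4% to 31.5% and C1qc 22.3% to 32.8%. In the deep libraries C1qb was the most counted chain, with 43.6% in light and 39.9% in dark against 31.2% and 32.6% for C1qa. The C1q counts behind these shares ran from 247 to 2180 per shallow library and were 10746 and 7739 in the deep pair.

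C1ra, the first protease of the C1 complex, stood at 55.9 and 37.9 CPM in shallow P815-IFNG dark, 69.2 and 42.5 in P815-IFNG light, 37.4, 49.8 and 35.8 in P815-M light, and 17.2, 18.8 and 24.7 in P815-M dark. C1s1, the protease that C1r activates, stood at 115 and 91.1, 264 and 110, 144, 136 and 101, and 42.9, 22.9 and 53.1 CPM in the same order. Both proteases were lowest in P815-M dark, and the highest value of each came from replicate 1 of P815-IFNG light. The deep light and dark libraries held 54.7 and 29.0 CPM of C1ra and 53.1 and 29.3 CPM of C1s1. The near copies C1rb and C1s2 took 0% to 5.88% of C1r and 0% to 3.02% of C1s counts in shallow libraries, but 9.71% and 5.67%, and 16.9% and 12.9%, in the deep light and dark ones, so that reads shared with them are uncertain.

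C4b, the gene of C4, which C1s cleaves, stood at 321 and 396 CPM in shallow P815-IFNG dark, 505 and 367 in P815-IFNG light, 419, 354 and 236 in P815-M light, and 83.9, 113 and 145 in P815-M dark. Its P815-M dark libraries lay below every other shallow library, while the other 3 groups overlapped. The deep light and dark libraries held 106 and 61.5 CPM, and the near copy C4a took 1.58% to 4.44% of C4 counts in all libraries. C2, the protease partner of C4 in the convertase, stood apart from the rest: 141 and 120 CPM in P815-IFNG dark, 146 and 172 in P815-IFNG light, 210, 182 and 132 in P815-M light, and 135, 172 and 144 in P815-M dark. Its groups overlapped except for the P815-IFNG pair, and the deep libraries held only 17.9 and 14.5 CPM. C2 shares 161 exon bases with Zbtb12 on the other strand, and both C2 and Cfb share exon bases with a readthrough gene, Gm20547, that is not among the rows used here.

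C3, the protein on which all routes of the cascade converge, stood at 752 and 945 CPM in shallow P815-IFNG dark, 831 and 529 in P815-IFNG light, 622, 740 and 531 in P815-M light, and 424, 325 and 515 in P815-M dark. Cfb, factor B, stood at 120 and 111, 230 and 148, 139, 119 and 109, and 93.7, 71.9 and 88.9 CPM in the same order. Cfb was the member whose P815-IFNG light libraries lay above every other shallow library. Serping1, the inhibitor, stood at 202 and 168, 221 and 130, 147, 159 and 189, and 72.6, 79.2 and 88.9 CPM. Its P815-M dark libraries lay below all the others, and the remaining groups overlapped. The deep light and dark libraries held 412 and 242 CPM of C3, 65.4 and 34.2 of Cfb, and 161 and 102 of Serping1.

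**Figure D1:**
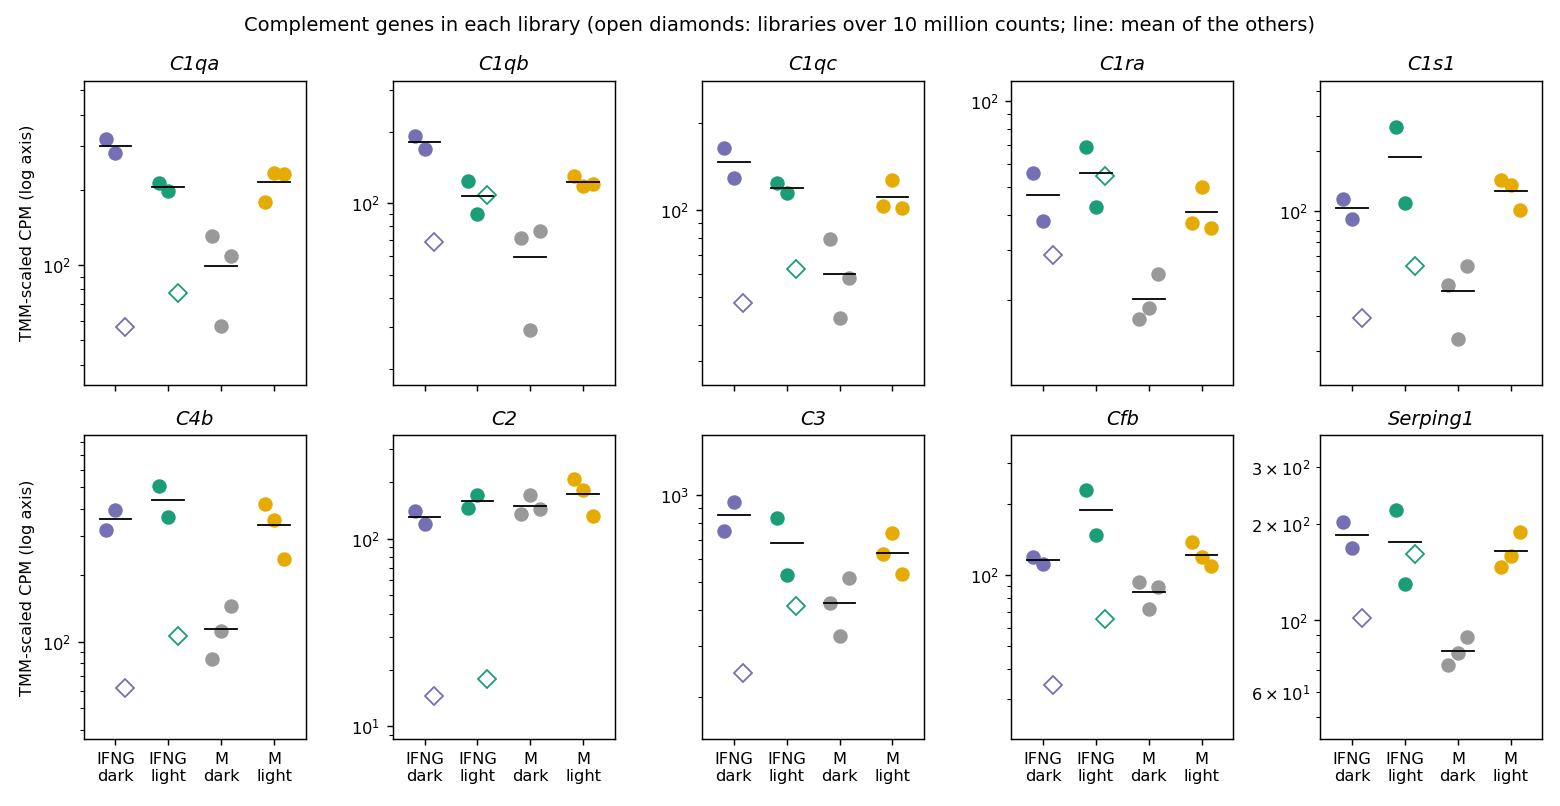
Level of each of the 10 complement genes in every library, in TMM-scaled CPM on a log axis, by group. Filled points are shallow libraries, open diamonds the deep P815-IFNG libraries and lines the mean of the shallow libraries, and P815-M dark is the lowest shallow group for every gene except C2.

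Per kilobase of exon, as medians over the shallow libraries, C1qa was the highest at 198 CPM per kb, followed by C3 at 112, C1qb at 109, Serping1 at 65.8, C4b at 59.2, C1qc at 56.5, Cfb at 40.8, C2 at 37.5, C1s1 at 33.7 and C1ra at 12.6. The ranges of neighbours in this order overlapped in every case. In the deep libraries the first places fell to C1qb at 99.8 in light and 63.3 in dark, and C2 was the lowest at 4.62 and 3.74 CPM per kb. On the log2 scale the shallow over the deep libraries of P815-IFNG differed by 3.08 for C2, 2.23 for C4b and 1.90 for C1qa, against 0.29 for C1ra and a median of -0.03 over all genes tested. Of all genes tested, 7.9% had a higher value than C2, 11.9% than C4b and 13.9% than C1qa.

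In control tumors, light against dark asks what illumination does without the module. Over the 10 shallow libraries, C1qa, C1s1, C4b and Serping1 were higher in P815-M light and past the threshold (adjusted p at or below 0.05 and at least a doubling). The log2 fold change was 1.09 ± 0.23 (SE) for C1qa, 1.65 ± 0.31 for C1s1, 1.54 ± 0.24 for C4b and 1.02 ± 0.20 for Serping1, with adjusted p of 0.0354, 0.0202, 0.00839 and 0.0237 in edgeR's quasi-likelihood test. These are 4 of 10 members, where 0.856% of the 16944 genes tested were called higher. The members were chosen with earlier results of these data known, so that this contrast is a description. C1qb (1.03 ± 0.26), C1qc (0.86 ± 0.21) and C1ra (1.00 ± 0.25) had edgeR adjusted p between 0.0581 and 0.0709, and C3 (0.56), Cfb (0.51) and C2 (0.20) had larger ones. In 9 of 10 members, all but C2, every light library lay above every dark one, against 10.7% of all genes. The median over the members was 1.01, and over all genes 0.00. Without P815-M light replicate 1, no member was called, and 18 genes were called in all, against 157 with the 10 libraries. C4b alone was called without P815-M light replicate 2 (43 genes in all) or dark replicate 2 (60). C4b and C1s1 were called without light replicate 3 (170 genes in all) or dark replicate 3 (76), and 3 members without dark replicate 1 (37).

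With all 12 libraries in the fit, which shares one estimate of spread and so includes the deep pair, the fold changes in P815-M were alike but none passed. The median was 1.03, with 0 of 10 members and 0% of the 18804 genes called by edgeR, and 9 of 10 members again did not overlap, against 10.1% of all genes. At an unadjusted p under 0.05 stood 5 members (C1qb, C1ra, C1s1, C4b and Serping1), against 2.71% of genes. DESeq2 on the 12 libraries also called 0 members, with 1 gene called in all. Gm16567, on the other strand of C1s1, stood at 2494, 2002 and 1492 CPM in P815-M light against 425, 500 and 592 in dark, a log2 fold change of 1.96 ± 0.23 with an edgeR adjusted p of 0.00211 over the shallow libraries.

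In P815-IFNG tumors, light against dark is the comparison in which light is meant to switch on the module, and no member passed. In the shallow libraries the construct row held 6 and 11 counts in light against 6 and 9 in dark. The Ifng row held 4 and 37 counts in light against 3 and 6 in dark, and Cxcl10 held 15 and 97 against 11 and 19. Whether the module was active in each of these libraries was not tested. Over the shallow libraries, all 3 C1q chains were lower in light in both mice than in both dark mice, at log2 fold changes of -0.56 ± 0.28 for C1qa, -0.76 ± 0.31 for C1qb and -0.30 ± 0.24 for C1qc. Cfb, at 0.71 ± 0.23, and C2, at 0.28 ± 0.22, were higher in light without overlap, and C1s1 was at 0.85 ± 0.36 with overlap, a value that became 0.07 without P815-IFNG light replicate 1 and 1.35 without light replicate 2. C1ra, C4b, C3 and Serping1 lay between -0.33 and 0.27. EdgeR called 0 of 10 members and 0% of genes as higher, the smallest adjusted p being 0.361 for Cfb. Non-overlap is frequent with 2 mice against 2, at 22.9% of genes lower and 19.2% of genes higher in light, and at an unadjusted p under 0.05 stood 3 members, C1qb, C1s1 and Cfb, against 10.7% of genes. DESeq2 on these libraries called 0 members too, among 18 genes called in all. Gm16567 stood at 2179 ± 820 CPM in light against 879 ± 89.0 in dark (SD, n = 2 mice each), a log2 fold change of 1.31 ± 0.28 with an edgeR adjusted p of 0.215.

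Marker lists of other tissues are given for the same shallow libraries, with 0 genes called in each. Adipocyte markers were positive for 0 of 9 genes at a median log2 fold change of -3.02, and summed to 47.5 and 37.6 CPM in light against 216 and 299 in dark, while the deep light and dark libraries held 120.5 and 29.0 CPM. Skeletal muscle markers were positive for 0 of 9, with sums of 117 and 116 against 545 and 146 CPM, and endothelial markers for 1 of 10 at -1.61, with sums of 158 and 154 against 250 and 267 CPM. Macrophage and monocyte markers were positive for 6 of 18 at -0.24, with sums of 2902 and 1874 against 2697 and 2748 CPM. The part of these tissues in the complement values was not tested.

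The deep pair, 1 mouse in light and 1 in dark, is given without a test. All 10 members were higher in the deep light library, by 0.29 (C2) to 0.91 (Cfb) on the log2 scale, with C1q chains between 0.39 and 0.65, against a median of -0.03 over all genes. Irf1, a transcription factor of the interferon gamma response, differed in the same direction by 1.55. In the fit of all 12 libraries the member median was 0.21, edgeR called 0 members and 0% of genes, and 0 members had an unadjusted p under 0.05 against 2.18% of genes.

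**Figure D2:**
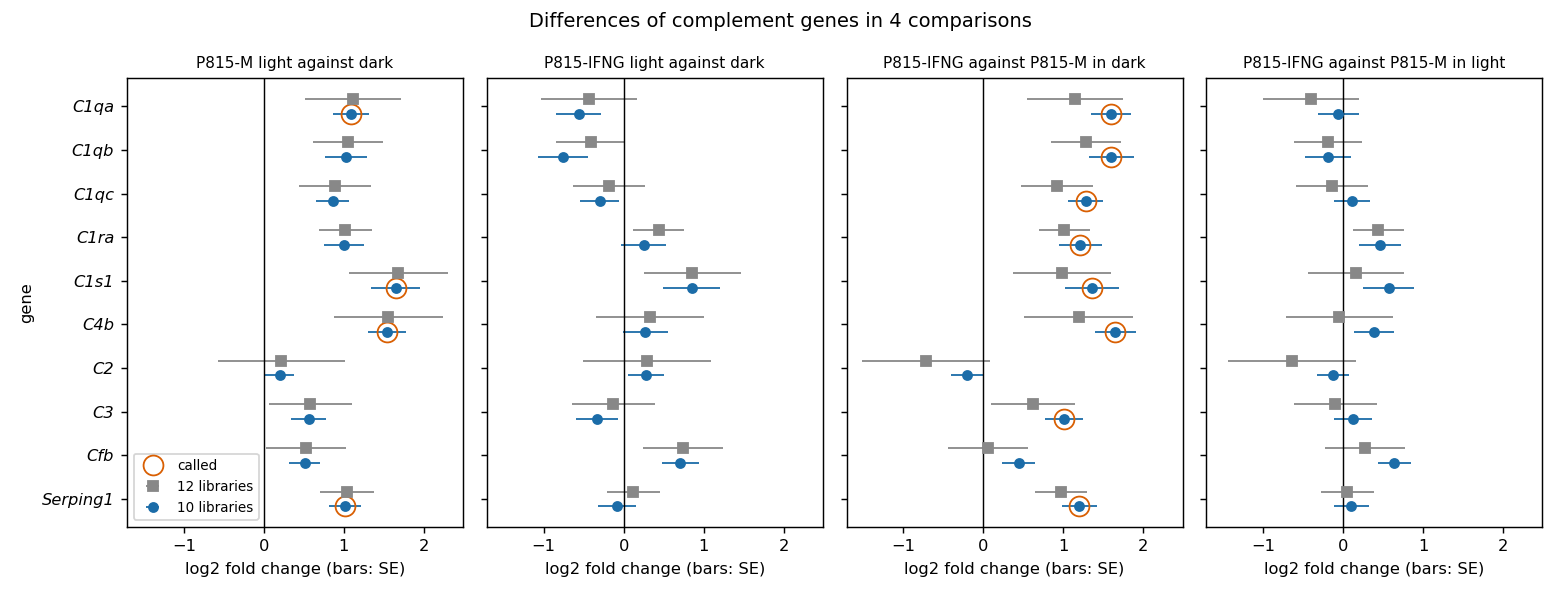
Log2 fold changes with standard errors (bars) of the 10 complement genes in 4 comparisons, from all 12 libraries (squares) and from the 10 shallow libraries (circles). Ringed points passed the threshold: 4 genes between light and dark in P815-M and 8 between the lines in dark, each in the shallow libraries.

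Between the lines in dark, with the module unlit, the members differed most. Over the shallow libraries 8 of 10 were higher in P815-IFNG and past the threshold, where 1.6% of genes were called higher. This contrast too is a description, since the members were chosen with earlier results of these data known. It shares its P815-M dark mice with the light contrast of the control line, and the interaction given below uses them as well. P815-M dark was the lowest shallow group for every member except C2. Its mean C4b level was 114 CPM, against 336 to 436 CPM in the other shallow groups. Low values in these mice move each of these results, so they are not independent of one another. The C1q chains had log2 fold changes of 1.59 ± 0.25 for C1qa, 1.60 ± 0.28 for C1qb and 1.28 ± 0.22 for C1qc, at edgeR adjusted p of 0.00473, 0.00862 and 0.00862. C4b had the largest of the members, 1.65 ± 0.26 (edgeR adjusted p 0.00397), C1s1 at 1.36 ± 0.34 (0.0399), C1ra at 1.21 ± 0.27 (0.0266), Serping1 at 1.20 ± 0.22 (0.0113) and C3 at 1.01 ± 0.24 (0.0326). Cfb, at 0.44 ± 0.21, did not pass, and C2 was at -0.21 ± 0.20. In 9 of 10 members the groups did not overlap with P815-IFNG higher, against 19.6% of genes. The member median was 1.24 and that of all genes 0.05. Leaving out P815-M dark replicate 1 left 5 called members, with 415 genes called in all, against 371 with the 10 libraries. Leaving out P815-M dark replicate 2 also left 5, with 150 genes called in all. Without a shallow P815-IFNG dark library that group holds 1 mouse, so no count is given here.

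The deep P815-IFNG dark library was below the P815-M dark mean for C1qa, C1qc, C1s1, C4b, C2, C3 and Cfb. With it and its light partner in the fit the median was 0.98, against 0.33 over all genes. EdgeR then called 0 members and 0.0106% of genes, and 3 members (C1qb, C1ra and Serping1) stood at an unadjusted p under 0.05, against 6.86% of genes. DESeq2 on the 12 libraries called 0 members among 44 genes in all.

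Other tissue markers also differed between these groups, and not all in the same direction. Adipocyte markers were positive for 9 of 9 genes, 6 of them called, and their summed level was 216 and 299 CPM in the shallow P815-IFNG dark libraries against 21.4 to 66.2 in P815-M dark and 29.0 in the deep dark library. Fibroblast markers were positive for 18 of 18 with 4 called and summed to 7829 and 15486 against 6332 to 6905 CPM, and macrophage and monocyte markers were positive for 17 of 18 with 3 called and summed to 2697 and 2748 against 1323 to 1525 CPM. Skeletal muscle markers summed to 545 and 146 against 90.2 to 554 CPM, with Acta1 at 0 CPM in P815-M dark replicates 1 and 3. Endothelial markers summed to 250 and 267 against 93.0 to 215 CPM. Hepatocyte markers summed to 168 and 277 against 120 to 208 CPM. Of these, only 1 of 3 tested over the shallow libraries was positive, at a median log2 fold change of -0.82 with 0 called. Mast cell markers summed to 2089 and 2013 against 2232 to 2865 CPM, and 6 of 10 tested were positive with 0 called. The hepatocyte marker Alb stayed at or below 0.976 CPM in every library. The part of these tissues in the complement difference was not tested, and in whole tumors more cells of a type and more RNA per cell cannot be told apart.

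Between the lines in light, where both lines were illuminated, no member passed. Whether the module was active in each P815-IFNG library was not tested. Over the shallow libraries edgeR called 0 of 10 members and 0.136% of genes as higher in P815-IFNG. Cfb was the largest difference, at 0.64 ± 0.21 and higher in P815-IFNG in every library, against 14% of genes that did not overlap in this direction. Its edgeR adjusted p was 0.261, and it was the member with an unadjusted p under 0.05, against 10.3% of genes. DESeq2 on these libraries called 0 members among 74 genes in all. The C1q chains lay between -0.19 and 0.11, and the member median was 0.12. With 12 libraries the median was -0.07, and edgeR called 0 members against 0.016% of genes, with 0 members at an unadjusted p under 0.05 against 6.79% of genes.

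Whether light acted differently in the lines was tested as an interaction, P815-IFNG against P815-M, which was negative for 8 of 10 members over the shallow libraries. It was -1.65 ± 0.36 for C1qa, -1.78 ± 0.40 for C1qb, -1.16 ± 0.32 for C1qc, -1.27 ± 0.37 for C4b, -1.10 ± 0.31 for Serping1 and -0.89 ± 0.34 for C3, the 6 members with an unadjusted p under 0.05, against 7.7% of genes. EdgeR called 0 members, with adjusted p of 0.276 for C1qa and 0.278 for C1qb, and 0.0118% of genes. DESeq2 on the same libraries called C1qa and C1qb among 26 genes in all. C2 and Cfb were at 0.08 ± 0.29 and 0.20 ± 0.29. Low P815-M dark values make the interaction more negative, so it is not separate from the contrasts above that use the same mice. With 12 libraries edgeR called 0 members and 0% of genes, and DESeq2 called 0 members among 4 genes in all. C1qb alone, at -1.46 ± 0.61, had an unadjusted edgeR p under 0.05 against 1.66% of genes.

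Across the shallow libraries, which share a library kind and low count totals, the C1q chains varied together, with Pearson's r of log2(CPM + 1) between 0.92 and 0.97 (n = 10). C1ra, C1s1, C4b and Serping1 formed a second close set at 0.87 to 0.93. C3 stood nearer to the C1q chains at 0.84 to 0.89, and Cfb was nearest to C1s1 at 0.92 and, apart from C2, farthest from C1qb at 0.58. C2 followed no member in these libraries, with r from -0.26 to 0.19. It stood at 120 to 210 CPM in them against 14.5 and 17.9 CPM in the deep pair, and the strand behind its shallow counts is not known. The correlations are descriptions, since a shared difference between groups raises them all.

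**Figure D3:**
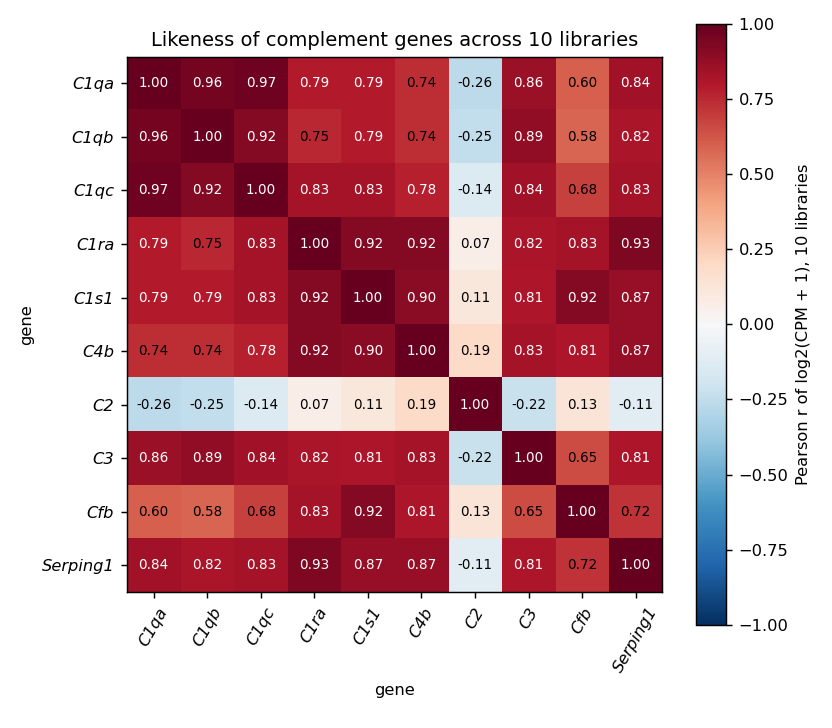
Pearson's r between the log2(CPM + 1) levels of each pair of complement genes over the 10 shallow libraries. The C1q chains share r of 0.92 to 0.97, and the row of C2 runs from -0.26 to 0.19 with the other members.

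The genes whose level was most like the C1q mean, of 10010 compared, were Kctd12, Itm2b, Cebpa, Ctsb and Pld4, at r of 0.94 to 0.96. Those most like the mean of the 7 other components were Sp140, Zcchc24, Klf3, Axl and Arhgef3, at 0.95 to 0.97. No gene was on both of these lists.

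The C1q mean and the mean of the other components were then set against marker lists, as mean log2(CPM + 1) over the 10 shallow libraries. These 6 relations are descriptions without p, since the members were chosen with results known. The C1q mean followed the macrophage and monocyte list at Pearson's r of 0.96 and Spearman's rho of 0.93, at 0.89 without the 2 libraries farthest from the median, and at 0.85 for deviations from the group means. It followed the interferon gamma response list at 0.64 (rho 0.52), at 0.41 without those libraries and 0.68 within groups, and the fibroblast list at 0.61 (rho 0.78), with -0.24 within groups. The other components followed the interferon gamma response list at 0.83 (rho 0.79), at 0.60 without the 2 farthest libraries and 0.73 within groups. With the macrophage list they stood at 0.76 (rho 0.61), at 0.47 without the 2 farthest and 0.36 within groups, and with the fibroblast list at 0.35 (rho 0.38) and -0.48 within groups. The macrophage list thus had the highest r for C1q and the interferon list the highest for the others, and that difference was not tested.

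**Figure D4:**
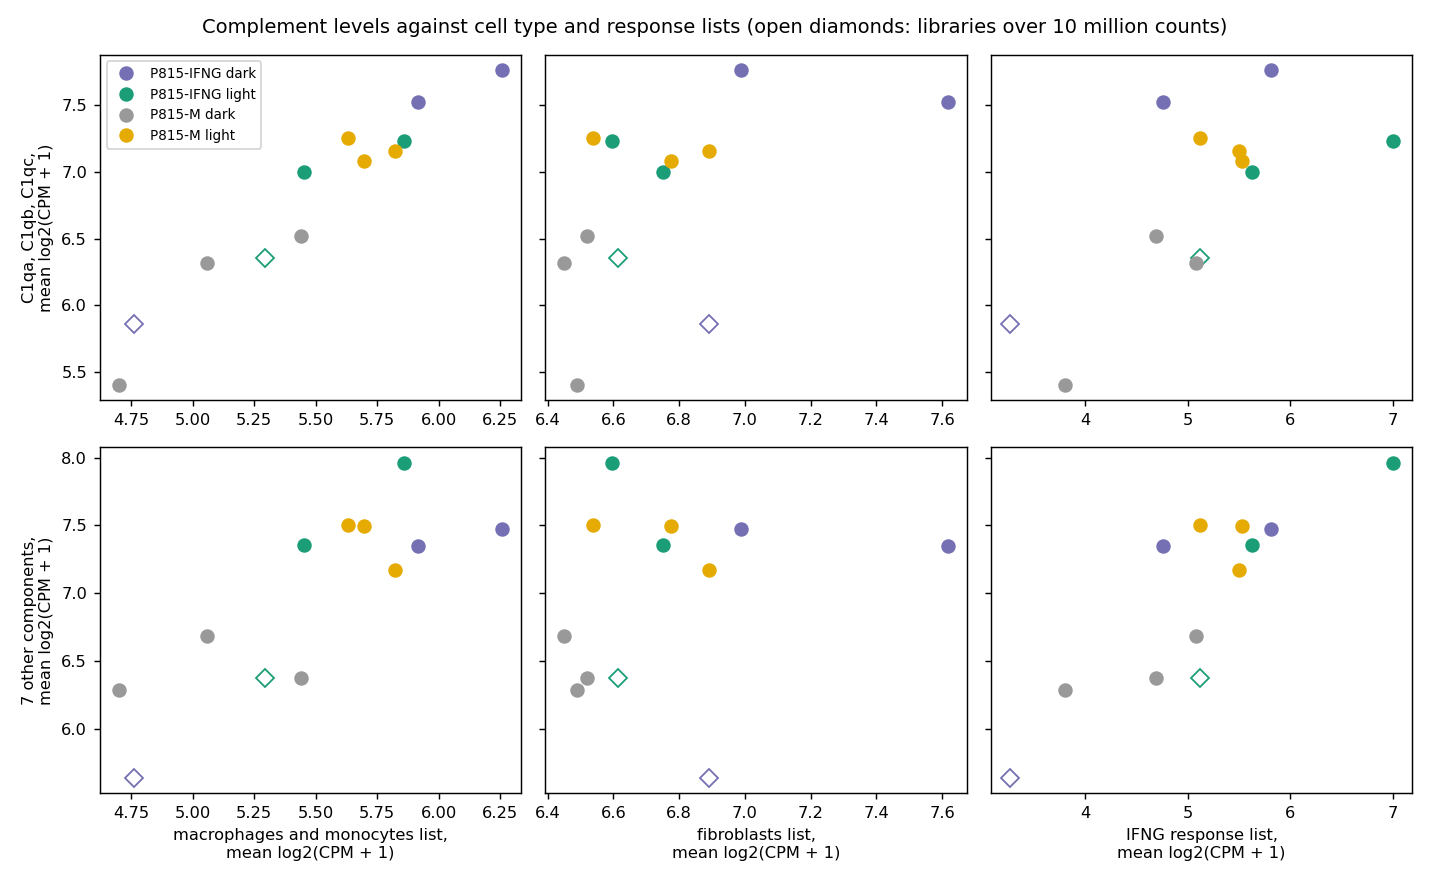
Mean log2(CPM + 1) of the C1q chains (top row) and of the 7 other components (bottom row) against the macrophage, fibroblast and interferon gamma response lists, 1 point per library and colored by group. Over the filled points C1q follows the macrophage list (r 0.96) and the other components the interferon list (r 0.83), while the deep libraries (open diamonds) lie below most points.

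The lists were also compared between light and dark, in P815-M first. Macrophage and monocyte markers summed to 2384 to 2599 CPM in light against 1323 to 1525 in dark without overlap, and 16 of 18 were positive with 0 called, at a median of 0.29. The defining receptor Csf1r was at 0.27 ± 0.16 and did not pass. Cd68, another marker of the list, stood at 106 ± 22.7 CPM in P815-M light against 59.4 ± 15.8 in dark (SD, n = 3 mice each). Csf1r also differed by library kind. In P815-IFNG light and dark it stood at 282 and 289 CPM as shallow means, against 39.6 and 42.5 in the deep libraries. The C1q mean stood 1.33 to 1.62 log2 units above the macrophage list in P815-M light, 1.37 to 1.61 in shallow P815-IFNG and 0.70 to 1.25 in P815-M dark. The interferon gamma response list was positive for 21 of 22 genes in P815-M with a median of 0.95. In shallow P815-IFNG it was positive for 22 of 22 with a median of 1.19, and 0 were called in either. Its sums overlapped between light and dark in both lines. They were 1563, 1313 and 1657 CPM in P815-M light against 956, 644 and 1318 in dark. In shallow P815-IFNG they were 3668 and 1740 CPM in light against 1784 and 894 in dark. Irf1 was at 1.28 ± 0.44 in P815-IFNG and at 0.95 ± 0.37 in P815-M. Fibroblast markers were positive in P815-IFNG light for 1 of 18 genes, median -0.70 with 0 called, and were positive for 12 of 18 in P815-M. The part of these lists in the complement values was not tested.

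Of 39 further complement genes, 28 could be tested over the shallow libraries. In P815-M light 21 of them were positive, and Cd55, a membrane regulator that speeds the decay of convertases, was the gene called, where 0.856% of all genes were called higher, at 1.18 ± 0.26 with an edgeR adjusted p of 0.0411. Cd55 shares 102 exon bases with Gm16083 on the other strand. C3ar1, the receptor of C3a on myeloid cells, was at 0.98 ± 0.22 with an edgeR adjusted p of 0.045, just under the fold required. In dark between the lines 24 of 28 were positive, with 6 called higher in P815-IFNG against 1.6% of all genes. Cfd, the factor D protease, which adipocytes secrete and which also stands on the adipocyte list, was at 3.50 ± 0.73. Cd93, a surface receptor of myeloid and endothelial cells, was at 1.33 ± 0.22, C3ar1 at 1.25 ± 0.24, and Cfp, properdin, which stabilises the alternative convertase, at 1.03 ± 0.23. In P815-IFNG light against dark 10 of 28 were positive with 0 called. Cfd was at -3.74 ± 0.86 and Cd93 at -0.99 ± 0.24, and Cd55 at 0.87 ± 0.30 and Cd46, a membrane cofactor, at 1.14 ± 0.42. Cd46 shares 1079 exon bases with a gene on the other strand. That gene stood at 17.1 to 37.5 CPM in shallow libraries, against 4.53 to 18.2 CPM for Cd46. Between the lines in light 12 of 28 were positive with 0 called. With 12 libraries edgeR called none of the 28 in these comparisons.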

How the data were processed

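RNA of 12 subcutaneous P815 tumors was sequenced from libraries of a stranded mRNA kit. Per the labels and the study's methods, reads were trimmed with fastp, aligned to mm10 plus the knock-in sequences with STAR 2.7.9a and counted per gene with HTSeq 0.13.5 in default settings, and the deposited values are whole-number counts per gene. The annotation release is not given in the sources used here, and the batch correction of the study is not in these counts. DESeq2 1.32.0 is also named there and was not used here in that version.

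The 13 mitochondrial rows were left out, as were genes whose counts summed to less than 10. EdgeR 4.0.16 (TMM factors, quasi-likelihood test, Benjamini-Hochberg adjustment, R 4.3.3) was fitted to all 12 libraries, 3 per group, and to the 10 libraries below 10000000 counts. A gene was called when its adjusted p did not exceed 0.05 and its fold change reached 1 on the log2 scale in either direction. Levels are TMM-scaled CPM, and list levels are means of log2(CPM + 1). 3 counts correspond to 0.931 to 1.56 CPM in shallow and 0.067 to 0.0694 CPM in deep libraries. The members and lists were chosen with earlier results of these data known. Named were all members, their near copies, other complement genes of at least 10 CPM on average over the shallow libraries, lineage markers, Irf1 and the 5 genes most like each member group. Gm16567, Zbtb12 and Tardbp were added after values were seen. Some genes that this rule names are not reported here. Alternatives were DESeq2 1.42.0, its size factors, other filters, ComBat-seq (sva 3.50.0), a library kind term, a replicate block and leaving out each library. The pipeline was tested on simulated data. Upstream sequences come from RefSeq (GRCm38.p6). Replicates are separate mice.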

Additional observations from a re-analysis of the deposited data

How the results depend on the processing

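The number of complement genes called rested on how the deep pair was treated. With all 12 libraries it was 0 in each comparison, and it stayed 0 with each library left out in turn, with other filters, with DESeq2 and with its size factors. For P815-M light against dark it was 4 with only the groups compared, 4 with library kind as a term, 4 with the 10 shallow libraries and 2 with ComBat-seq. Alternatives added after seeing the data, within the 10 libraries, gave 6 with DESeq2, 4 with filterByExpr, 4 with DESeq2 size factors and 5 with the replicate block, and 0 to 5 with each library left out. For the lines in dark it was 0 with only the groups compared, 7 with library kind as a term, 8 with 10 libraries and 7 with ComBat-seq. Within 10 libraries it was 7 with DESeq2, 7 with filterByExpr, 7 with DESeq2 size factors, 8 with the replicate block and 3 to 8 with each library left out. For the difference in the effect of light it was 2 with DESeq2 on 10 libraries, of 26 genes called in all. With all 12 libraries, the genes called over all genes were 0 in P815-M light against dark, but 244 with only the groups compared, 194 with library kind as a term and 245 with ComBat-seq. With the 10 libraries they were 157, and within these 230 with DESeq2, 139 with filterByExpr, 150 with DESeq2 size factors and 252 with the replicate block. For the lines in dark they were 0 with only the groups compared, 290 with library kind as a term, 371 with 10 libraries and 400 with ComBat-seq. Within 10 libraries they were 427 with DESeq2, 350 with filterByExpr, 349 with DESeq2 size factors and 445 with the replicate block. The labels do not say that replicate numbers pair the mice. Same-numbered pairs had correlations of -0.31 to 0.97, 11 of 18 over 0.1. Other-numbered pairs had -0.92 to 0.85, 11 of 36 over 0.1. The value of 0.97 came from the deep pair, so this check cannot tell pairing from library kind. The replicate block with 12 libraries called 0 members.

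Some directions reversed against the 12 library values, and the cause was not tested. In P815-IFNG light against dark, C3 was 0.04 with library kind as a term, and Serping1 was -0.08 with 10 libraries, -0.05 with DESeq2, -0.06 with filterByExpr, -0.05 with DESeq2 size factors and -0.10 with the replicate block on them. Between the lines in light, Serping1 was -0.05 with DESeq2 and with its size factors, and C1s1 -0.05 with the replicate block. With library kind as a term C1qa was 0.12, C1qb 0.08, C1qc 0.24, C3 0.30 and C4b 0.46, and with ComBat-seq 0.12, 0.09, 0.21, 0.27 and 0.44. With 10 libraries C1qc was 0.11, C3 0.12 and C4b 0.38. With DESeq2, filterByExpr, DESeq2 size factors and the replicate block on them C1qc was 0.11, 0.11, 0.11 and 0.06, C3 0.11, 0.11, 0.11 and 0.12, and C4b 0.38, 0.38, 0.38 and 0.37. In dark Cfb was -0.04 with DESeq2 and with its size factors and -0.13 with the replicate block. With 1 library left out, from all 12 or from the 10 shallow ones, values ranged across 0 for these genes. Between the lines in light the lowest and highest were -0.67 and 0.01 for C1qa, -0.45 and 0.03 for C1qb, -0.35 and 0.22 for C1qc, -0.67 and 1.07 for C1s1, -1.09 and 0.04 for C2, -0.46 and 0.41 for C3, -0.52 and 0.60 for C4b, -0.22 and 0.93 for Cfb, and -0.35 and 0.44 for Serping1. For P815-IFNG light against dark they were -0.58 and 0.18 for C1qc, -0.16 and 0.74 for C1ra, -0.24 and 0.80 for C2, -0.70 and 0.25 for C3, -0.17 and 0.77 for C4b, and -0.52 and 0.35 for Serping1. In dark they were -0.25 and 0.52 for Cfb, and for the interaction -0.43 and 0.61 for C2 and -0.26 and 0.62 for Cfb. In P815-M light against dark no member reversed under any of these alternatives. Low counts limit the shallow libraries, where a member's counts ran from 36 (C1ra) to 2821 (C3).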
